A study of Mus musculus with 12 samples.

Results

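The collagen gene family was followed through the differentiation of mouse embryonic stem (ES) cells towards neuromesodermal progenitors, in cells with and without Smchd1. Members were the genes whose symbol is Col, a type number, the letter a and a chain number, such as Col4a1. This gave 43 of the 25965 genes in the table, and 32 of them had a value above 0 (deposited, log2) in 2 or more of the 12 libraries. Those 32 were tested, together with 14063 genes in all. A gene can pass this filter through the group where it is high, so the counts below describe the 32 and are not support for a change of the family.

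All ES lines were male C57BL/6 lines, each derived from 1 blastocyst in 2i+LIF medium and carrying floxed Smchd1 (fl/fl). A share of each line was transduced with MSCV-Cre-puro and selected with puromycin (del/del), and the rest was kept untransduced. Loss of Smchd1 therefore cannot be told apart from transduction and selection. Both were moved to serum+LIF, then LIF was removed and Fgf2 added, with a Gsk3 inhibitor after 2 days and Gdf11 after another 4 days. Libraries were made at days labelled 1, 5 and 8, and the growth protocol calls the first of these day 0 and the labels describe it as undifferentiated. Each of the 6 groups held 2 libraries, from lines 1 and 3, and paired values below are given for line 1 first and line 3 second. The column of fl/fl day 8, line 3, is named as a merge, and the name does not say of what. The del/del cells are selected populations. P-values rest on the spread between these lines. In bulk RNA, fewer cells of a type and less RNA per cell cannot be told apart.

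Collagens are trimers of chains that wind into a triple helix, and each gene encodes 1 chain. Fibrillar collagens form the cables of bone, tendon, skin and cartilage, and fibril-associated collagens (FACIT) sit on their surface. Type IV collagen forms the sheet of basement membranes, where type XVIII, a heparan sulfate carrying collagen, is also found. Type VI forms beaded filaments, type VII anchors epithelium to the tissue below it, and the transmembrane collagens stay in the plasma membrane. In the early embryo the parietal endoderm is known for a thick type IV membrane, while mesenchyme is known for types I, III, V and VI.

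Between 1509642 and 8670941 reads per library were assigned to genes, and the shallowest was the fl/fl day 8 library of line 3. That library had 10.1% of its reads in genes, against 14.3 to 27.8% in the other libraries. Smchd1, the deleted gene, stood between 3.99 and 5.36 in the 6 fl/fl libraries and between 1.82 and 2.57 in the 6 del/del libraries, on the rescaled log2 scale used throughout. On this scale each library's log2 reads scaled to library depth (RPM) were shifted so that its median gene matched the mean library. One library stood apart for several members: fl/fl day 1 of line 1 held 53 reads of Col1a1, 57 of Col3a1, 81 of Col6a1 and 62 of Col6a2. The other day 1 libraries held 6 to 19, 10 to 12, 4 to 11 and 11 to 18 reads of these genes. In that library 0 of 10 fibroblast markers were at 0 reads, against 3 to 5 in the other day 1 libraries, and Twist2 had 8 reads, Prrx1 6 and S100a4 4. Thy1 and Meox2 were lowest in it, with 38 and 2 reads against 51 to 99 and 3 to 6. Dcn with 32 and Pdgfrb with 8 lay inside the range of the other day 1 libraries (24 to 64 and 4 to 9). The summed marker level was 3.61 RPM there and 2.60 to 4.26 RPM in the others, and the part of fibroblast RNA in these values was not tested.

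Promoter windows were available for 35 of the 43 members (38 windows of 300 bases, from 250 before to 50 after the start, RefSeq, GRCm38.p6). The 3 below are shown because they belong to the genes the results turn on. Only 1 window is shown per gene, and for Col18a1 it is the one with the highest start coordinate. The Col4a2 window covers the shared head-to-head start of Col4a1 and Col4a2, the pair called lower in del/del at day 8 on the rescaled scale. Col3a1 was called higher in both time steps, and Col18a1 is the member whose rescaled level hardly moved. Capitals mark a CCAAT box (CCAAT or ATTGG), a GC box (GGGCGG or CCGCCC) or a TATA box (TATAAA or TTTATA), and no matches overlapped. The windows lie at chr8:11312555-11312854 on the plus strand, chr1:45311288-45311587 on the plus strand and chr10:77166481-77166780 on the minus strand.
Col4a2: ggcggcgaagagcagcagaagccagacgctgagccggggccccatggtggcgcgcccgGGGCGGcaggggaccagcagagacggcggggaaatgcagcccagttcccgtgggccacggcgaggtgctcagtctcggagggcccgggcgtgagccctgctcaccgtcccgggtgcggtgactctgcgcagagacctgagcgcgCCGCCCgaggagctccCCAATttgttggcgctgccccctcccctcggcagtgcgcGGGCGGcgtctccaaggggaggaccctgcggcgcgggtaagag
Col3a1: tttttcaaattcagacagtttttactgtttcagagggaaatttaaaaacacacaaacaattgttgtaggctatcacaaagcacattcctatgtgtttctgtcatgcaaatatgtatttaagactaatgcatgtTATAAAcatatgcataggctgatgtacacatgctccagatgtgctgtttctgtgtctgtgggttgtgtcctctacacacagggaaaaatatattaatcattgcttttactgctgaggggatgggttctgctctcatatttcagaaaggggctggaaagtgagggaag
Col18a1: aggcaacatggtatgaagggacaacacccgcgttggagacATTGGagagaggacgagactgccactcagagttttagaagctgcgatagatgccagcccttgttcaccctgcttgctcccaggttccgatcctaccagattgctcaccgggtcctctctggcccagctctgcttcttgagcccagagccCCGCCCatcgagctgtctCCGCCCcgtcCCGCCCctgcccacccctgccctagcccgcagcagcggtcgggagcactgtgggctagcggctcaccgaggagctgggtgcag
The start sites of Col4a1 (minus strand) and Col4a2 (plus strand) lay 21 bases apart, at 11312826 and 11312805 on chromosome 8, inside the Col4a2 window. The Col4a2 window was 73.7% G or C and held 3 GC boxes and 1 CCAAT box. The Col18a1 window, at 63.3% G or C, also held 3 GC boxes and 1 CCAAT box. The Col3a1 window was 37.7% G or C and held 1 TATA box and no match of the other motifs. Over all 38 collagen windows the GC box was present in 60.5%, against 35.7% of 32851 windows in the whole table. The CCAAT box was in 34.2% of collagen windows against 37.4% of all, and the TATA box in 13.2% against 13.6%. These are matches of letters only.

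Collagen mRNA took a growing share of gene reads. The day 1 libraries had 0.0853 to 0.098% of their gene reads on collagens, the day 5 libraries 0.192 to 0.311% and the day 8 libraries 0.594 to 0.79%. To compare genes, levels were divided by exon length (RPM per kb). At day 1, Col18a1 had the highest level of any collagen, at a mean of 19.0 RPM per kb over the 4 libraries (17.7 to 20.5), and made up 70.9 to 73.7% of the collagen level. Col9a2, a chain of the cartilage FACIT type IX, followed at 2.36 RPM per kb (2.04 to 2.75). At day 5 Col4a1 averaged 19.7 RPM per kb (12.9 to 29.9), Col18a1 18.4 (16.6 to 20.5) and Col4a2 18.1 (11.9 to 27.1), ranges that overlap.

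At day 8 the make-up differed between the genotypes. Col4a1 and Col4a2 made up 57.0 and 76.5% of the collagen level in fl/fl libraries and 23.8 and 28.7% in del/del libraries. Types I, III, V and VI together made up 25.04 and 8.55% in fl/fl and 54.4 and 53.2% in del/del. The 2 del/del libraries were close to each other in both shares, the 2 fl/fl libraries were apart, and the groups did not overlap. Col18a1 fell to 8.36 to 10.1% of the collagen level at day 8 while its own level hardly moved, between 6.80 and 7.17 on the rescaled log2 scale in all 12 libraries. Its genotype difference at day 8 was 0.03 ± 0.13, and without the shift to the median gene it was 0.91 and was called, beside 0.90 for the median gene.

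**Figure D1:**
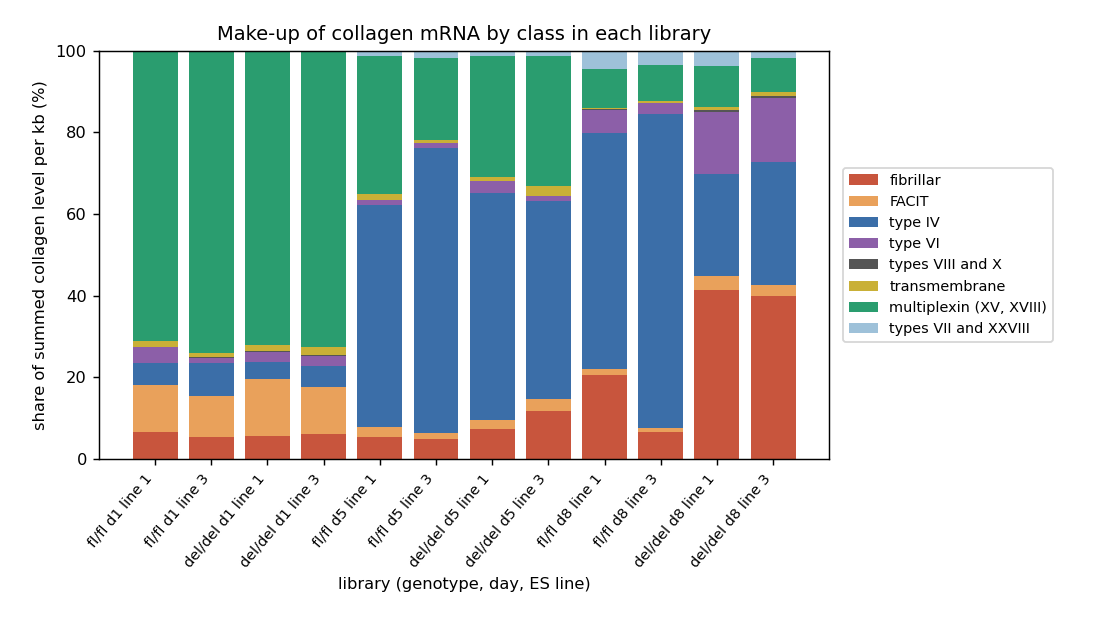
Stacked bars show, for each of the 12 libraries, the share of the summed collagen level per kb (y axis, percent) taken by each collagen class. Multiplexins, nearly all Col18a1, fill over 70% of the day 1 bars, type IV is the widest class at day 5, and fibrillar and type VI chains are wider in the del/del than in the fl/fl bars at day 8.

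The 11 members that did not pass the filter were Col4a3, Col4a4, Col6a4, Col6a6, Col10a1, Col11a2, Col15a1, Col17a1, Col19a1, Col20a1 and Col28a1. Col10a1, the collagen of hypertrophic cartilage, had 0 reads in all 12 libraries. Col20a1 had the most, 218 reads in total. Just inside the filter were Col9a1 and Col24a1, whose second highest deposited log2 values were 0.03 and 0.12, and just outside were Col11a2 and Col20a1 at -0.01 and -0.05. Col4a3 and Col4a4, the kidney and lung chains of type IV that share a start region, were therefore not tested, and the type IV results concern Col4a1, Col4a2, Col4a5 and Col4a6.

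**Figure D2:**
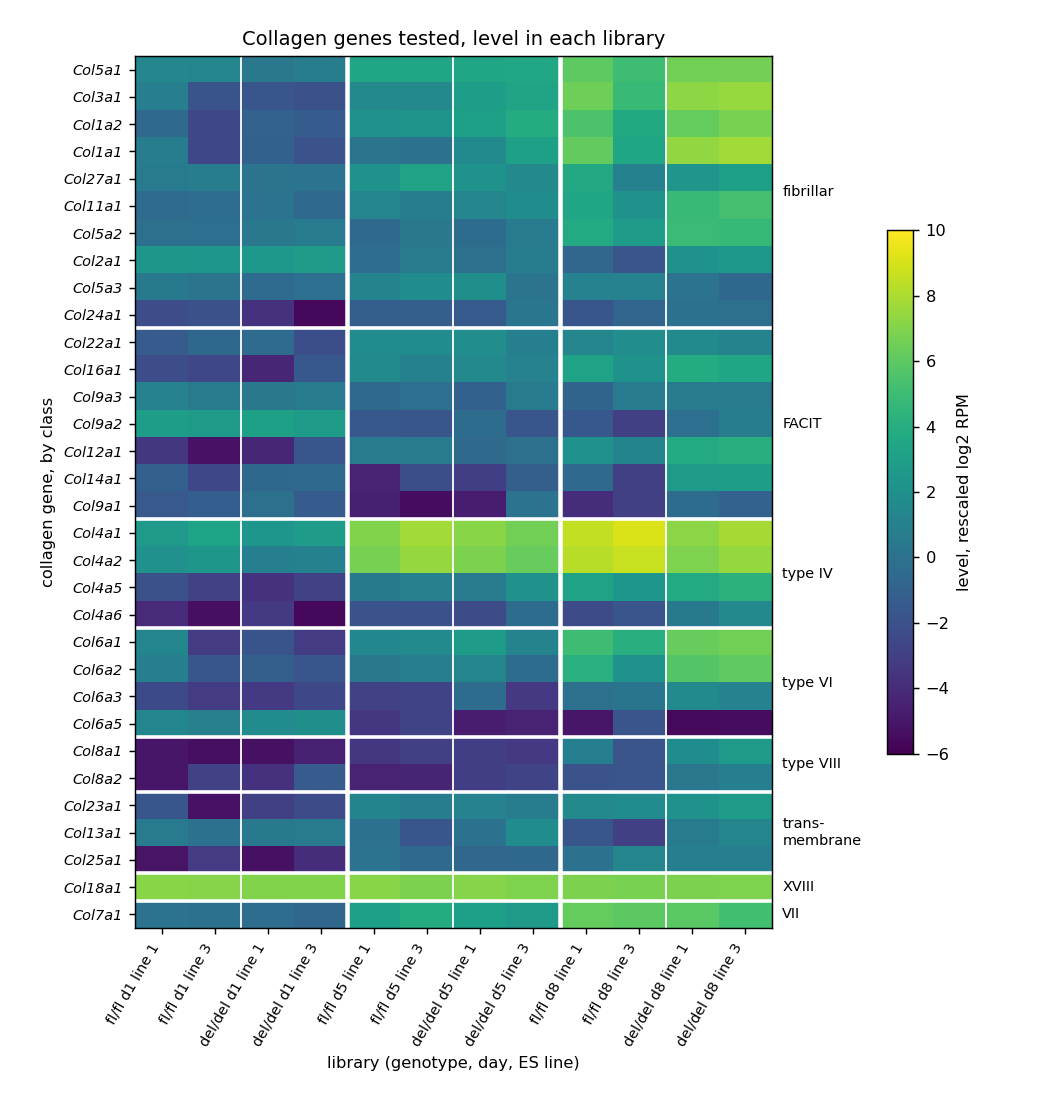
Each row is 1 of the 32 tested collagen genes, grouped by class, each column is 1 library, and the colour is the level in rescaled log2 RPM. Col18a1 keeps 1 colour across the row, Col4a1 and Col4a2 brighten from day 1 to day 5, and the Col1a1, Col3a1, Col6a1 and Col6a2 rows are brightest in their 2 del/del day 8 columns.

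Between day 1 and day 5 the 4 tested type IV chains rose, and Col2a1, Col9a2 and Col6a5 fell, in both genotypes. Col4a1, the most abundant type IV chain, stood at 2.60 and 3.29 at day 1 and at 6.97 and 7.80 at day 5 in fl/fl cells. In del/del cells it stood at 2.40 and 2.80, then 7.16 and 6.59. Its partner chain Col4a2 went from 2.07 and 2.48 to 6.72 and 7.49 in fl/fl, and from 0.91 and 1.05 to 6.85 and 6.30 in del/del. No day 5 library of either gene overlapped a day 1 library. The differences for Col4a1 were 4.44 ± 0.34 (SE) in fl/fl (limma adjusted p = 8.38e-06) and 4.27 ± 0.34 in del/del (adjusted p = 9.06e-06). For Col4a2 they were 4.83 ± 0.29 (adjusted p = 2.2e-06) and 5.60 ± 0.29 (adjusted p = 9.84e-07). Endoderm markers summed to 17.2 and 69.0 RPM in fl/fl and 25.7 and 17.8 RPM in del/del at day 5, against 4.26 to 4.52 RPM at day 1. The fl/fl day 5 library of line 3, with the highest Col4a1 of that day, held 517 reads of Gata4 and 554 of Sox17. The other day 5 libraries, which were less deep, held 31 to 86 and 77 to 179. On the rescaled scale these genes stood at 3.69 and 3.79 there, against 0.63 to 1.80 and 1.94 to 2.86. The part of endoderm in the rise was not tested.

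In fl/fl cells 15 of the 32 tested members rose from day 1 to day 5 and 4 fell, where 23% of all 14063 genes rose and 17.9% fell. In del/del cells 17 rose and 3 fell, where 21.2% of all genes rose and 18.3% fell. The member medians were 1.64 and 2.28 and the medians of all genes -0.04 and 0.03. The 2 lists shared 17 genes, 89.5% of the fl/fl calls and 85% of the del/del calls.

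The 4 tested type IV chains rose in both genotypes. Col4a5, a chain of kidney and muscle basement membranes encoded on the X, rose by 3.18 ± 0.57 in fl/fl (adjusted p = 0.00134) and 4.72 ± 0.57 in del/del (adjusted p = 0.000117). Its neighbour Col4a6 rested on few reads, 2 and 0 at day 1 against 6 and 10 at day 5 in fl/fl, and its fl/fl call did not hold with the lines as a block (adjusted p = 0.0557). Col7a1, the anchoring fibril chain, went from 0.11 and 0.06 to 3.01 and 3.84 in fl/fl, a difference of 3.34 ± 0.32 (adjusted p = 2.94e-05), and rose by 3.30 ± 0.32 in del/del (adjusted p = 3.21e-05).

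Among fibrillar chains, Col5a1, which sets fibril width, was at 1.43 and 1.33 at day 1 and 3.42 and 3.41 at day 5 in fl/fl. It rose by 2.04 ± 0.27 there (adjusted p = 0.0002) and by 2.90 ± 0.27 in del/del (adjusted p = 2.07e-05). Col1a2, the second chain of type I collagen, rose by 3.82 ± 0.65 in fl/fl (adjusted p = 0.001) and 4.63 ± 0.65 in del/del (adjusted p = 0.000308). Its partner Col1a1 rose in del/del, by 3.81 ± 1.02 (adjusted p = 0.0125), and was not called in fl/fl, where its day 1 libraries held 53 and 6 reads. Col3a1, the only chain of type III collagen, rose by 5.05 ± 0.70 in del/del (adjusted p = 0.000284) and by 2.03 ± 0.70 in fl/fl (adjusted p = 0.0388). Whether Col3a1 rose more in del/del was tested as the change of the genotype effect, 3.02 ± 0.99, which was not called (adjusted p = 0.962).

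Risers outside these classes included FACIT and transmembrane chains and, in del/del, a type VI chain. Col12a1, a FACIT of tendon and embryonic mesenchyme, went from 3 and 1 reads at day 1 to 33 and 62 at day 5 in fl/fl, a difference of 4.92 ± 0.81 (adjusted p = 0.000783). Col16a1, another FACIT, rose by 3.74 ± 0.73 in fl/fl and by 4.28 ± 0.73 in del/del (adjusted p = 0.00219 and 0.00101). Col23a1 and Col25a1, transmembrane collagens, rose by 4.43 ± 0.86 and 3.98 ± 0.78 in fl/fl (adjusted p = 0.00213 and 0.0022). In del/del, Col6a1 rose by 4.47 ± 1.11 (adjusted p = 0.00853), a call that was lost without the day 5 library of line 1 (adjusted p = 0.0606) and also without the day 1 library of line 3.

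The falling members were Col2a1, Col9a2, Col6a5 and, in fl/fl, Col9a1. Col2a1, the main cartilage fibril chain, was at 2.45 and 2.41 at day 1 and at -0.30 and 0.64 at day 5 in fl/fl, and fell by 2.26 on the log2 scale (SE 0.45, adjusted p = 0.00248). In del/del it fell by 2.35 (SE 0.45, adjusted p = 0.00206). Col9a2, whose product coats type II fibrils, went from 254 and 230 reads to 7 and 12 in fl/fl and from 336 and 297 to 19 and 6 in del/del. It fell by 4.51 in fl/fl (adjusted p = 0.000177) and by 3.95 in del/del (adjusted p = 0.000399). Col6a5, a type VI chain, went from 128 and 180 reads in del/del at day 1 to 0 in both day 5 libraries. That is at least 53.9-fold lower, with 3 reads over the group taken for 0 (adjusted p = 0.000367 in limma), and in fl/fl it went from 81 and 70 reads to 2 and 6 (adjusted p = 0.0045). Col9a1 went from 11 and 16 reads to 0 in both fl/fl day 5 libraries, at least 8.11-fold lower (adjusted p = 0.0383), a call that was lost without any 1 of the 4 libraries compared (adjusted p up to 0.165). Its groups overlapped in del/del, where the day 5 libraries held 0 and 21 reads.

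**Figure D3:**
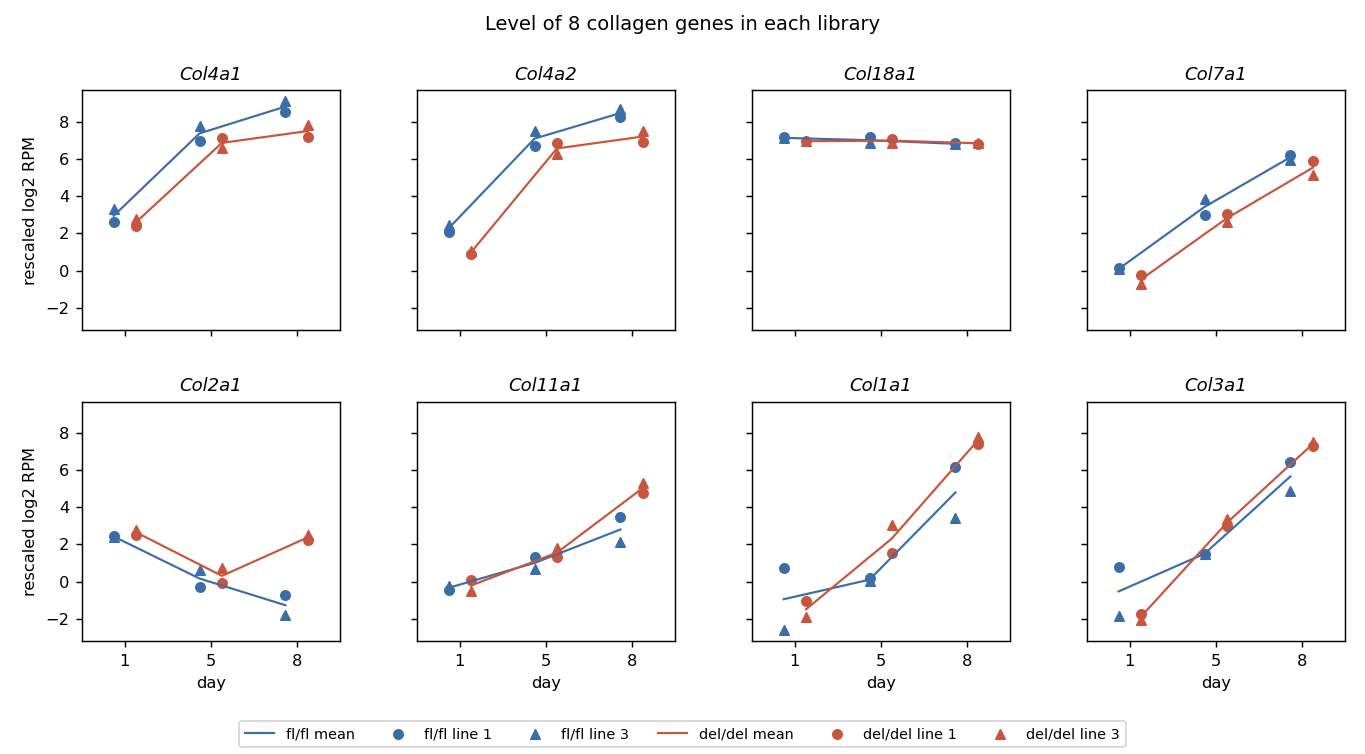
Each panel shows 1 collagen gene, with the level in rescaled log2 RPM on the y axis (the same range in every panel) and the day on the x axis. Circles are line 1, triangles are line 3 and lines join group means. Col4a1 and Col4a2 climb mostly before day 5, Col18a1 stays flat, Col1a1 and Col11a1 climb mostly after it, Col3a1 climbs in both steps, and Col2a1 is lower at day 5 than at day 1 in both genotypes and at day 8 lies higher in del/del than in fl/fl.

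From day 5 to day 8, Col1a1, Col3a1, Col5a1, Col5a2, Col7a1 and Col11a1 were called higher in both genotypes, and the type VI chains Col6a1, Col6a2 and Col6a3 in del/del. In fl/fl cells 8 of the 32 rose and 0 fell, where 3.15% of all genes rose and 3.58% fell. In del/del cells 16 rose and 0 fell, where 7.24% of all genes rose and 4.67% fell. The lists shared 6 genes, 75% of the fl/fl calls and 37.5% of the del/del calls. At an unadjusted p under 0.05 limma gave 16 in fl/fl and 21 in del/del, and the voom fit on recovered reads called 13 and 18.

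Col1a1 went from 0.17 and 0.04 at day 5 to 6.17 and 3.43 at day 8 in fl/fl, and from 1.57 and 3.08 to 7.42 and 7.77 in del/del. It rose by 4.69 ± 1.02 (adjusted p = 0.0248) and 5.28 ± 1.02 (adjusted p = 0.00915). Col3a1 rose by 4.16 ± 0.70 in fl/fl (adjusted p = 0.00925) and 4.24 ± 0.70 in del/del (adjusted p = 0.00418). Col5a2, the partner chain of Col5a1 that lies beside Col3a1 on chromosome 1, rose by 3.35 ± 0.43 (adjusted p = 0.00345) and 4.66 ± 0.43 (adjusted p = 0.000234). Col7a1 rose again, by 2.67 ± 0.32 in fl/fl (adjusted p = 0.00324) and 2.72 ± 0.32 in del/del (adjusted p = 0.000761). Col4a1 and Col4a2 rose further in fl/fl, by 1.44 ± 0.34 and 1.37 ± 0.29 (adjusted p = 0.0345 and 0.0216), and by 0.64 ± 0.34 and 0.64 ± 0.29 in del/del, which were not called (adjusted p = 0.251 and 0.169).

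The 2 main type VI chains, Col6a1 and Col6a2, were called higher in del/del. In fl/fl their differences were 3.01 and 2.52 and were not called. The change of their genotype effect, 1.47 and 2.91, was not called either. In del/del Col6a2 went from 60 and 16 reads to 2224 and 2768, a difference of 5.43 ± 0.86 (adjusted p = 0.0033). Col6a1 went from 165 and 45 to 3272 and 3918 in these cells, a difference of 4.49 ± 1.11 (adjusted p = 0.0263). Col8a1, a short chain collagen of vessels and cornea, went from 3 and 2 reads to 144 and 254 (5.40 ± 0.89, adjusted p = 0.00418). Col14a1, a FACIT of tendon and skin, went from 3 and 9 reads to 263 and 307 (4.88 ± 1.00, adjusted p = 0.0122). Col2a1, which had fallen by day 5, rose by 2.07 ± 0.45 in del/del (adjusted p = 0.0153). The fl/fl count was 3 if day 5 of line 1 was left out, 5 if day 5 of line 3 was, and 3 on the deposited scale. The calls of Col1a1, Col3a1 and Col11a1 in fl/fl were lost in both of these leave-outs. The del/del count was 9 if day 8 of line 1 was left out and 6 if day 8 of line 3 was, and the calls of Col6a1 and Col14a1 were lost in both, those of Col1a1 and Col8a1 in the latter.

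Deletion of Smchd1 was compared with fl/fl at each day. At day 8, 7 of the 32 members were higher in del/del and 2 lower, where 7.95% of all genes were higher and 7.05% lower. The lower count is near that background. The groups did not overlap for 22 members that were higher and 5 that were lower, where 32.1% and 30.9% of all genes did not overlap. On the deposited scale, without the shift to the median gene, 19 members were called higher and 0 lower. There the median of all genes itself lay at 0.90, while on the rescaled scale the median of the 32 was 1.39 and of all genes 0.02.

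The 7 higher members were the fibrillar chains Col2a1, Col11a1, Col5a1 and Col5a2, the FACIT chains Col9a2 and Col14a1, and the transmembrane Col13a1. Col2a1 was at -0.74 and -1.80 in fl/fl and at 2.24 and 2.53 in del/del, from 18 and 2 reads against 201 and 229. The groups were far apart, with a difference of 3.65 ± 0.45 (adjusted p = 0.00498) that stayed called when any 1 of the 12 libraries was left out. Col11a1, which joins type II chains in cartilage fibrils, was at 3.46 and 2.15 in fl/fl and at 4.80 and 5.29 in del/del. It was higher by 2.23 ± 0.44 (adjusted p = 0.0149). Col9a2 was at -1.59 and -2.95 against -0.13 and 0.75, a difference of 2.58 ± 0.58 (adjusted p = 0.0206) that was not called with voom weights (adjusted p = 0.0838). Of the type IX partners, Col9a1 (2.77 ± 1.26) and Col9a3 (0.66 ± 0.59) were not called (adjusted p = 0.146 and 0.445), and the groups overlapped for Col9a3. Sclerotome and cartilage markers summed to 3.19 and 3.44 RPM in fl/fl and 3.05 and 1.94 RPM in del/del, with 0 of 2 tested markers called. Acan, the cartilage proteoglycan aggrecan, had 3 and 0 reads in fl/fl and 33 and 9 in del/del and was at 1.88 (adjusted p = 0.0965, and 0.0286 on the deposited scale). Its level was higher in the day 1 libraries, at 0.92 to 1.30, than in any day 8 library (-3.32 to -0.37). Notochord markers summed to 11.3 and 7.61 RPM against 4.32 and 5.99 RPM, with 0 of 3 called.

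Col5a1 was at 6.00 and 5.03 in fl/fl and at 6.60 and 6.65 in del/del, a difference of 1.11 ± 0.27 (adjusted p = 0.0248). Col5a2 was at 3.77 and 2.84 against 4.88 and 4.71, a difference of 1.48 ± 0.43 (adjusted p = 0.0425, and 0.0564 with the lines as a block). The third type V chain, Col5a3, pointed the other way at 1.09 and 1.11 against 0.08 and -0.67, and was not called (adjusted p = 0.104). Col14a1 had 21 and 0 reads in fl/fl and 263 and 307 in del/del, a difference of 4.52 ± 1.00 (adjusted p = 0.0201). Col13a1, a transmembrane collagen of cell contacts, had 9 and 0 reads against 64 and 97, a difference of 3.28 ± 0.73 (adjusted p = 0.02, and 0.0783 with voom weights). For both genes the fl/fl library at 0 reads was the shallow one of line 3.

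The main type I, III and VI chains had larger values in del/del in both lines but did not pass the test. Col1a1 was at 6.17 and 3.43 in fl/fl and 7.42 and 7.77 in del/del, a difference of 2.80 ± 1.02 (adjusted p = 0.083), and most of the spread lay between the fl/fl lines. Col1a2 differed by 1.86 ± 0.65 (adjusted p = 0.0742) and Col3a1 by 1.75 ± 0.70 (adjusted p = 0.108). Col6a2 differed by 2.75 ± 0.86 (adjusted p = 0.0525, and 0.0402 with the lines as a block), and Col6a1 by 1.88 ± 1.11 (adjusted p = 0.248).

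Col4a1 and Col4a2 were the 2 lower members. Col4a1 was at 8.55 and 9.11 in fl/fl and at 7.20 and 7.82 in del/del, and Col4a2 at 8.29 and 8.67 against 6.93 and 7.49. On the rescaled scale no library overlapped and both lines differed by a like amount, by -1.35 and -1.28 for Col4a1 and -1.35 and -1.18 for Col4a2. This rested on the shift to the median gene, which subtracted -0.09 and -1.10 in fl/fl and 0.35 and 0.22 in del/del. Without the shift the groups overlapped for both genes, and line 3 was not lower in del/del. The fitted differences on the rescaled scale were -1.32 ± 0.34 (adjusted p = 0.0314) and -1.26 ± 0.29 (adjusted p = 0.0209). On the deposited scale they kept their sign at -0.44 and -0.38 and were not called (adjusted p = 0.385 and 0.451), nor were they with no filter on low values (adjusted p = 0.0625 and 0.0514). Col4a1 was also not called with cyclic loess scaling (adjusted p = 0.0768) or once a trend with read density was taken out (adjusted p = 0.0696). The other type IV chains had differences of the opposite sign. Col4a6, on 6 and 2 reads in fl/fl and 59 and 113 in del/del, was at 3.05 ± 0.96 (adjusted p = 0.0545), and Col4a5 was at 1.19 ± 0.57 (adjusted p = 0.163).

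The summed level of 12 parietal and visceral endoderm markers at day 8 was 108 and 50.9 RPM in fl/fl and 20.8 and 64.2 RPM in del/del, so the groups overlapped, and 0 of 9 tested markers were called. Of the listed genes, Gata4 and Sox17 stood at 4.36 and 4.81 in fl/fl line 1 and at 2.81 and 3.77 in fl/fl line 3 (rescaled log2). In del/del they stood at 0.49 and -0.95 in line 1 and at 3.45 and 3.76 in line 3. In the same order their reads were 618 and 846, 49 and 95, 60 and 22, and 434 and 539, from libraries of unequal depth. Gata6, on the same list, stood at 2.76 and 2.01 in fl/fl and at 2.40 and 2.69 in del/del. Its genotype difference was 0.17, while the other tested endoderm markers had differences below 0. Apoa1 was at 0 reads in 3 of the 4 libraries. Beside the counts of called markers here, 7.95% of all genes were called higher and 7.05% lower in del/del. In the trophoblast list, the fl/fl library of line 3 held Krt18, Krt8 and Krt7 at 7.94, 7.34 and 6.09 (rescaled log2). Rhox6 and Rhox9 stood at 5.84 and 5.91 there. That library held 2 reads of Elf5, 15 of Prl3b1 and 0 of Prl3d1 and Tpbpa. The genotype differences of Tpbpa and Tfap2c, 0.27 and -0.30, were not called. Trophoblast markers summed to 248 and 619 RPM in fl/fl against 129 and 91.1 RPM in del/del, and 7 of 9 were lower, or 0 of 8 without the fl/fl library of line 3. Fibroblast markers summed to 66.4 and 31.3 RPM against 108 and 134 RPM, and 2 of 8, Thy1 and Pdgfrb, were higher, or 0 of 8 without that library. Endothelial markers summed to 80.2 and 76.1 RPM against 14.6 and 32.4 RPM, and 1 of 6, Tie1, was lower, or 0 without that library (adjusted p = 0.0692). Markers of neuromesodermal progenitors, the labelled cell type, summed to 40.6 and 46.5 RPM against 28.7 and 23.4 RPM, below the 78.4 to 123 RPM of day 5. Of these markers 1 of 7 was lower, Sox2 at -1.43 (adjusted p = 0.00759), which was not called on the deposited scale (adjusted p = 0.28). T, Cdx2, Cdx1 and Nkx1-2 also had differences below 0, which were not called. Tbx6 and Fgf8 had differences above 0, at 1.75 and 0.86 (limma adjusted p = 0.221 and 0.486). Tbx6 was called higher on the deposited scale (adjusted p = 0.0386). Pluripotency markers summed to 73.1 and 84.5 RPM in fl/fl against 51.7 and 43.3 RPM in del/del, from 130 to 168 RPM at day 1, and 2 of 7, Pou5f1 and Tfcp2l1, were lower, or 0 without that library. On the deposited scale Pou5f1 and Tfcp2l1 were not called in limma (adjusted p = 0.956 and 0.508). Nanog pointed the other way, at 0.63 (adjusted p = 0.264), and was called higher on the deposited scale (adjusted p = 0.0228). The part of these cell types in the collagen differences was not tested.

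The 4 day 8 libraries weighed heavily on these calls. Without the fl/fl library of line 3, the shallow one, 1 member was called, and with del/del of line 3 left out also 1, in both cases Col2a1. Leaving out del/del of line 1 left 3 calls (Col2a1, Col9a2 and Col11a1), and leaving out fl/fl of line 1 gave 16. In these fits the lone library is assumed to vary like the other groups.

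**Figure D4:**
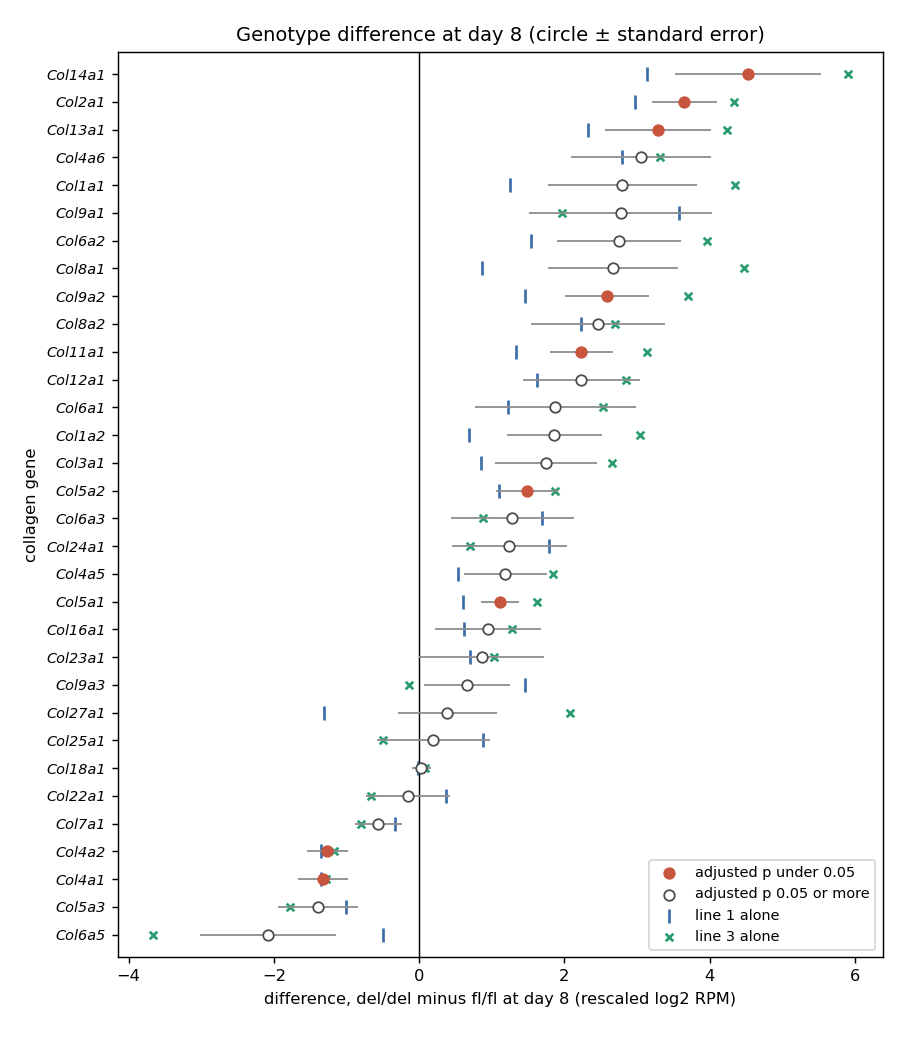
Circles show the fitted difference between del/del and fl/fl at day 8 for each tested collagen gene (x axis, rescaled log2 RPM, bars are standard errors), filled where the adjusted p was under 0.05, with the difference within each line as a tick (line 1) or a cross (line 3). Col4a1 and Col4a2 lie at -1.32 and -1.26 with both lines together, Col18a1 lies at 0.03, and for most genes on the right the line 3 cross lies further out than the line 1 tick.

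At day 1, 0 of the 32 members were called between the genotypes, where 0.00711% of all genes were called. At an unadjusted p under 0.05 limma gave 3 and the voom fit called 0. The smallest p was that of Col4a2, at 2.07 and 2.48 in fl/fl and 0.91 and 1.05 in del/del, a difference of -1.30 ± 0.29 with an adjusted p of 1. Col24a1, a fibrillar chain of bone and cornea, was at -2.57 ± 0.79 on at most 9 reads a library. Col5a1 was at -0.78 ± 0.27.

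At day 5 too, 0 members were called, where 0.00711% of all genes were, with 2 members at an unadjusted p under 0.05 in limma and 0 called by voom. Col13a1 was at 0.05 and -1.73 in fl/fl and 0.02 and 1.78 in del/del, and its groups overlapped (1.74 ± 0.73, adjusted p = 0.597). Col3a1 was on 63 and 113 reads in fl/fl against 195 and 204 in del/del, and its groups did not overlap (1.66 ± 0.70, adjusted p = 0.597). With del/del day 5 of line 1 left out, 1 member was called, Col9a1, which had 0 reads in that library and 21 in the other del/del library.

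Averaged over the 3 days, 0 members were called, where 0.107% of all genes were. At an unadjusted p under 0.05 limma gave 15 members, and voom called 0. Col4a2 was closest, at -1.03 ± 0.17 (adjusted p = 0.0514), then Col2a1 at 1.34 ± 0.26 (adjusted p = 0.0639) and Col13a1 at 1.78 ± 0.42 (adjusted p = 0.0705). With fl/fl day 8 of line 1 left out 12 were called, and with del/del day 5 of line 1 left out 10.

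Whether the genotype difference changed between days was tested as an interaction. From day 1 to day 5, 0 members were called, where 0% of all genes were, with 3 members at an unadjusted p under 0.05 in limma and 0 called by voom. From day 5 to day 8, 0 members were called, where 0.00711% of all genes were, with 7 at an unadjusted p under 0.05 in limma and 0 called by voom. Col2a1 had the smallest p there, a change of 3.51 ± 0.64 (adjusted p = 0.156). Col5a1 and Col11a1 followed at 1.04 ± 0.38 and 1.68 ± 0.62. A day 8 genotype call is therefore not shown to differ from day 5. With fl/fl day 8 of line 1 left out, 6 members were called in this interaction.

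Several collagen genes lie side by side, and the neighbours did not all behave alike. Col4a1 and Col4a2, which overlap by 22 bases, were within 0.1 of each other in the genotype difference at days 5 and 8 (-0.51 and -0.53, then -1.32 and -1.26). At day 1 they were at -0.35 and -1.30. Col4a6 and Col4a5, 1308 bases apart on the X in the same arrangement, were at 3.05 and 1.19 at day 8. Col3a1 and Col5a2, 24614 bases apart on chromosome 1, rose together from day 5 to day 8, but from day 1 to day 5 in del/del they were at 5.05 and -0.39. Col6a2 and Col6a1, 85161 bases apart on chromosome 10, were at 2.75 and 1.88 at day 8. Col4a1 and Col4a2 share 22 exon bases on opposite strands, 0.29% and 0.33% of their exons, so counting without strand could mix their reads there.

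The genes that make, export and hold collagen were read from lists. Before fibrils form, chains are hydroxylated and folded in the endoplasmic reticulum. Of 20 such genes, 11 rose and 1 fell from day 1 to day 5 in fl/fl and 10 rose and 1 fell in del/del, where 23% and 21.2% of all genes rose and 17.9% and 18.3% fell. Plod1, a lysyl hydroxylase, rose by 2.43 ± 0.18 and 2.22 ± 0.18 (adjusted p = 6.76e-06 and 8.98e-06), and Serpinh1, the collagen chaperone Hsp47, by 1.59 ± 0.21 and 1.91 ± 0.21. At day 8, 3 were higher and 2 lower in del/del, where 7.95% and 7.05% of all genes were. Leprel2, a prolyl 3-hydroxylase family member now named P3h3, was higher by 2.62 ± 0.48 (adjusted p = 0.0128) and Fkbp10, a collagen folding isomerase, by 0.98 ± 0.25 (adjusted p = 0.0298). P4hb, a subunit of prolyl 4-hydroxylase, was at -0.73 ± 0.21 (adjusted p = 0.0406).

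Of 13 tested genes for export, propeptide removal and crosslinking, 5 rose and 0 fell by day 5 in each genotype, beside the same 23% and 21.2% of all genes that rose. Bmp1, the protease that trims the carboxy end of procollagen, rose by 5.63 ± 0.25 in fl/fl and 5.96 ± 0.25 in del/del (adjusted p = 6.72e-07 and 3.72e-07). At day 8, 3 were higher in del/del and 0 lower, beside 7.95% of all genes higher. These were Loxl3 and Loxl1, crosslinking enzymes, at 1.57 ± 0.33 and 1.54 ± 0.33, and Pcolce, an enhancer of Bmp1, at 2.05 ± 0.50 (adjusted p = 0.0181, 0.0182 and 0.026). Among 6 tested receptors, Mrc2, which takes up collagen fragments, was higher by 1.83 ± 0.32 (adjusted p = 0.00998) and Ddr2, a kinase that binds fibrils, by 2.69 ± 0.76 (adjusted p = 0.0394). Ddr1, which also binds basement membrane collagen, was at -0.63 ± 0.17 (adjusted p = 0.0375), and was not called on the deposited scale (adjusted p = 0.564).

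Of 15 tested partners of type IV collagen in the basement membrane, 6 were lower in del/del at day 8 and 0 higher, where 7.05% and 7.95% of all genes were, with a median of -0.67, which was 0.21 on the deposited scale with 1 lower and 1 higher. Among them were the laminin chains Lama3, Lama5, Lamc1 and Lamb1 and the collagen-binding Sparc. Lama3 was at -2.54 ± 0.50 (adjusted p = 0.0154), Lama5 at -0.78 ± 0.16 (adjusted p = 0.0167) and Sparc at -1.22 ± 0.33 (adjusted p = 0.035). Of 11 partners of interstitial fibrils, 3 were higher and 1 lower. Fbn2, a fibrillin of embryonic microfibrils, was higher by 2.59 ± 0.43 (adjusted p = 0.00864) and fibronectin, Fn1, was at -1.06 ± 0.25 (adjusted p = 0.0235). On the deposited scale Fn1 was not called (adjusted p = 0.51). Of 9 tested regulators of collagen genes, Sp7, a factor of bone-forming cells, was higher by 4.47 ± 1.06 (adjusted p = 0.0242) and Twist1 by 1.05 ± 0.26 (adjusted p = 0.0264). The value of Sp7 rested on few reads, 126 in total over the 12 libraries. Sox9, the known activator of Col2a1 and Col11a1 in cartilage, was at -0.55 ± 0.59 and was not called (adjusted p = 0.524). Without the shallow fl/fl library, limma called 0 genes at day 8 in the basement membrane, modification, export and receptor lists, while 1 higher and 1 lower fibril partner and 1 regulator were called.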

How the data were processed

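The authors deposited log2 RPM values per gene for 12 RNA-seq libraries. Per the submitters' processing notes, the tools include bcl2fastq, TopHat2 2.0.12 and edgeR with genome build mm10, and their settings and the counting of strand are not given in the sources used here. Low values stepped in whole reads in every library, with 0 reads entered as 0.9 reads, so reads were recovered and 100% were whole within 0.02 of a read. Called with voom weights on these reads, 927 genes were higher and 951 lower at day 8. Intervals and floors (3 counts) cover counting error only.

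For each library, the median log ratio of its genes to the mean over libraries was subtracted. limma 3.58.1 (R 4.3.3) was fitted to 6 group means with a mean-variance trend, over the 14063 genes that exceeded 0 on the log2 scale in 2 or more libraries. P-values were adjusted by the Benjamini-Hochberg method over all of them, with a threshold of 0.05. Simulated data with known changes were used to test the fit. Exon lengths came from GENCODE release M21.

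Same-numbered libraries come from 1 ES line, per the labels' protocols and the column names. The deviations of same-line libraries correlated at 0.13, -0.15 and -0.11 at days 1, 5 and 8.

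Named genes were, by rule, all members called between genotypes, up to 6 per direction called over time, the 5 highest per kb at each day, their partner chains, and, where nothing was called, the 3 with the smallest p. The members and lists were chosen with earlier results of these data known. Col21a1 and Col26a1 have no row under these names, and Emid2, the older name of Col26a1, was not used. Older names were used for 6 other listed genes.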

Additional observations from a re-analysis of the deposited data

How the results depend on the processing

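Alternatives were the deposited scale, the ES line as a block, voom weights on recovered reads, no filter, a stricter filter, a pseudocount of 1 RPM, cyclic loess, removal of a read density trend, and leaving out each library. With the replicate block the day 8 count between genotypes stayed at 9 and that from day 1 to day 5 in fl/fl was 17. It lost Col5a2 at day 8 and Col27a1 (adjusted p = 0.052) and Col4a6 in fl/fl at day 5, gained Col6a2 at day 8, and changed no other call of a member.

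Counts that moved are given by comparison. Between genotypes at day 8 (9), the count was 19 on the deposited scale, 15 with voom, 20 with the pseudocount and 1 to 16 without 1 library. At day 5 (0) it was 0 to 1 without 1 library. Averaged over days (0) it was 5 with the pseudocount and 0 to 12 without 1 library. From day 5 to day 8 in fl/fl (8) it was 3 on the deposited scale, 13 with voom, 5 with no filter, 13 with the pseudocount and 3 to 11 without 1 library. In del/del (16) it was 6 to 17 without 1 library. For the change of the genotype effect from day 5 to day 8 (0) it was 1 on the deposited scale, 3 with the pseudocount and 0 to 6 without 1 library. The cause of these moves was not tested.

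Day 8 differences that turned sign were all uncalled. Col7a1 was at 0.32 and Col22a1 at 0.73 on the deposited scale, Col22a1 at 0.14 with no filter and Col27a1 at -0.32 with voom. Without 1 library, Col9a3 ranged from -0.0881 to 1.40, Col25a1 from -0.47 to 0.86, Col27a1 from -0.93 to 1.70 and Col22a1 from -0.43 to 0.12. At 1509642 gene reads, members with few reads in the fl/fl day 8 library of line 3 were at or near 0.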
